A study of Homo sapiens with 17 samples.

Results

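Genes for the subunits of glutamate, GABA, glycine and nicotinic acetylcholine receptors were followed through retinoic acid treatment of the CHP-134 neuroblastoma line, both in dishes and after growth in mice. The members were chosen by gene symbol alone: the GRIA, GRIK, GRIN and GRID genes, the GRM genes, the GABR and GABBR genes, GLRA1 to GLRA4 with GLRB, and the CHRN genes. This rule found 68 of the 60662 genes that both count tables hold, and it used no expression value. The members fell into 4 AMPA, 5 kainate, 7 NMDA, 2 delta, 8 metabotropic glutamate, 19 GABA-A, 2 GABA-B, 5 glycine and 16 nicotinic genes.

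CHP-134 is a human neuroblastoma line, long established and with amplified MYCN, and all 17 RNA-seq libraries come from this 1 line. The 8 culture libraries comprised cells in the solvent DMSO (n = 2) and cells kept 1, 3 or 6 days in 2 µM ATRA, all-trans retinoic acid (n = 2 at each time). The 9 tumor libraries came from luciferase-labelled CHP-134 cells grown under the skin of female athymic nude mice about 12 weeks old, a strain without mature T cells that keeps its other host cells. Of these, 5 were control tumors, labelled untreated, though the study's text calls them vehicle-treated. The other 4 were RA tumors from mice given 13-cis-RA by mouth at 25 mg/kg, 2 doses per day, on a schedule planned for 12 weeks. The day on which each tumor was taken was not given in the sources used here. ATRA and 13-cis-RA are stereoisomers of the same acid. Only the implanted cells are described as luciferase-labelled, and cultures and tumors were made into libraries with different kits. Luciferase label, kit, host and growth in a mouse thus cannot be told apart where a tumor group is set against a culture group.

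Ionotropic receptors are ion channels built from several subunits that surround a pore, whereas metabotropic receptors signal through G proteins. AMPA, kainate and NMDA receptors and the nicotinic receptors pass cations and excite the cell, while GABA-A and glycine receptors pass chloride. Neuroblastoma arises from the sympathoadrenal lineage of the neural crest, and sympathetic ganglion cells receive their synaptic input through nicotinic receptors that contain the alpha3 and beta4 subunits. Retinoic acid binds nuclear receptors that act on transcription, and it is used as a differentiating agent in neuroblastoma.

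The culture libraries held 31607020 to 39422890 counts and the tumor libraries 17266484 to 29078822, so that 1 count stood for 0.0273 to 0.0331 CPM (counts scaled to a library of 1e6) in culture and 0.0326 to 0.0559 CPM in tumors. CPM values here share 1 scaling over all 17 libraries (TMM, which sets the libraries on a common scale through genes of moderate fold). All 8 adrenergic neuroblastoma markers, MYCN among them, were detected in every group, with summed levels of 2460 to 4240 CPM over the libraries. Skeletal muscle markers summed to 294 CPM in control tumor 1, against 11.8 to 27.3 CPM in the other 4 control tumors and 12.6 to 17 CPM in the RA tumors. Fibroblast marker genes summed to 203 CPM in both DMSO libraries and 61.3 to 64.0 CPM after 6 days, and to 64.5 to 144 CPM in control against 50.1 to 76.2 CPM in RA tumors, while endothelial and leukocyte markers summed to under 5 CPM in every library. Markers of Schwann cells and glia summed to 7.78 to 8.38 CPM in DMSO, 12.7 to 13.8 after 6 days, 3.7 to 6.1 in control and 4.78 to 5.39 in RA tumors. Of these 6 genes 2 were higher and 1 lower in control tumors than in DMSO, and SOX10 had no count in any culture. The part of these markers in the results was not tested. The RNA is from whole cultures and tumors, so fewer cells of a type and less RNA per cell cannot be told apart. The study reports that most cells of this line die during the ATRA treatment in culture and that the few survivors become neuron-like. Whether differences in the ATRA cultures, above all at 6 days, reflect changes within cells or the survival of some cells was not tested.

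In DMSO, 34 members reached a mean of 1 CPM and 19 reached 10 CPM, while 13 had no count in either library. In the control tumors 48 members reached 1 CPM and 2 had no count. A total of 53 members either reached 1 CPM in some group or changed in some comparison, and 50 of them reached 1 CPM. The other 15 (among them CHRNA6, CHRNB3, GABRA4, GABRA6, GABRP, GABRR1, GABRR3, GLRA4, GRIA1, GRIN2A, GRIN2B, GRM6 and GRM7) had group means of at most 0.468 CPM. To compare levels between genes, CPM was divided by the length of the union of a gene's exons. On that per-length scale CHRNA3, the alpha3 nicotinic subunit, was the most abundant member in DMSO at a mean of 67.0 CPM per kilobase, with CHRNB4, the beta4 subunit, at 17.4, CHRNA5 at 16.0 and CHRNB2 at 15.7. In the control tumors CHRNB2 stood at 10.2 CPM per kilobase, GRIN1 at 9.47 and CHRNA3 at 8.82.

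**Figure D1:**
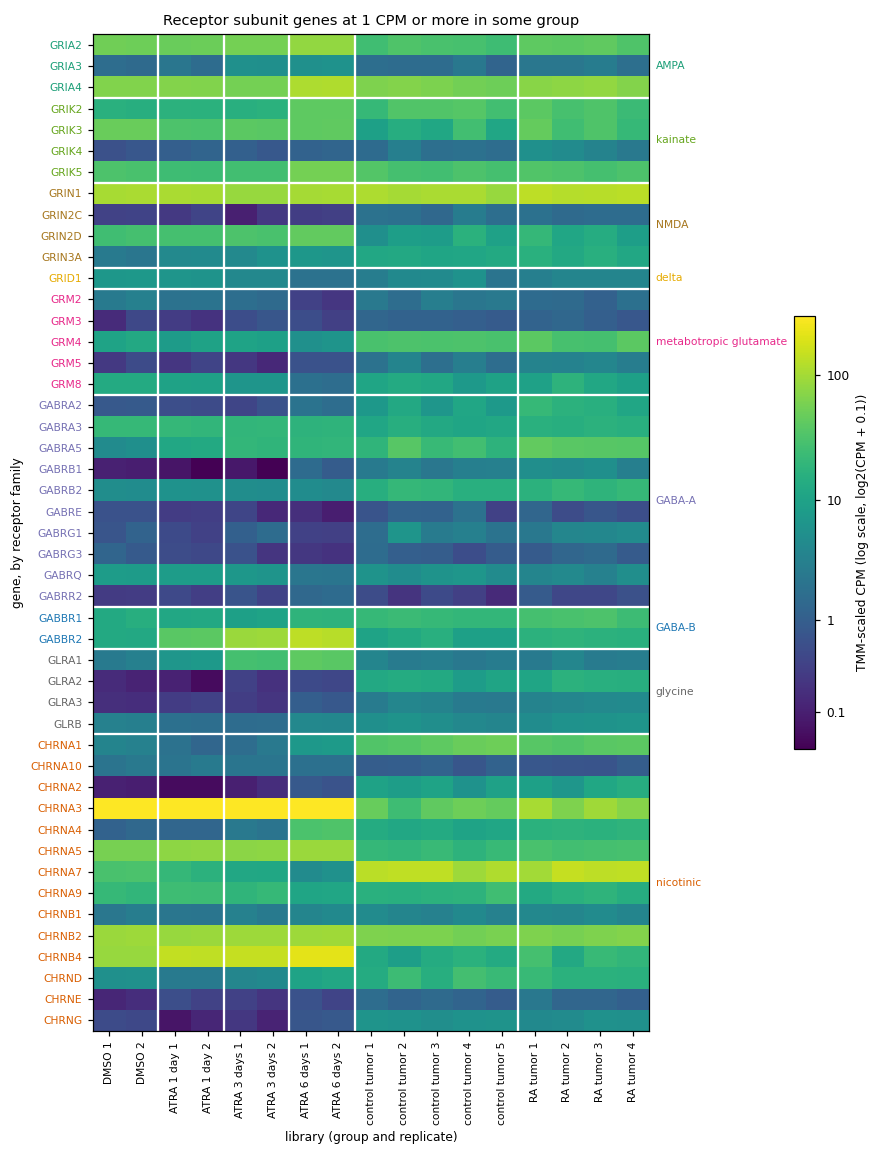
Level of 47 of the members with a group mean of at least 1 CPM, 1 row per gene by receptor family and 1 column per library, colored by CPM on a log scale (an offset of 0.1 CPM was added; CHRNA3 in culture lies at or past the top of the color scale). CHRNA3 runs from 320 and 318 CPM in DMSO to 777 and 759 after 6 days and 24.5 to 50.7 in the control tumors, and GLRA2 stands at 8.30 to 13.7 CPM in the control tumors against 0.164 and 0.125 in DMSO.

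A gene is said to have risen or fallen where edgeR's quasi-likelihood test gave an adjusted p under 0.05 (Benjamini-Hochberg over all genes tested) together with a change of more than 2-fold, and fold changes are given as log2 values ± SE. Enough counts for the test in the cultures were present in 51 of the 68 members. After 1 day of ATRA 4 members rose and 5 fell (9 of 51), where 2.74% of all 20237 genes passed, 1.95% up and 0.791% down. The fit over all 17 libraries called 5 members at 1 day, and DESeq2 called 5 and gave no adjusted p for CHRNE, CHRNG, GABRG1 and GABRG3. After 3 days 7 rose and 6 fell (13 of 51), where 7.87% of all genes passed, 5.45% up and 2.43% down. DESeq2 called 8 members at 3 days, as did edgeR's test without DMSO replicate 1. After 6 days 18 rose and 9 fell (27 of 51), where 31.2% of all genes passed, 18.8% up and 12.3% down. The median log2 fold change of the members tested was -0.15 after 1 day, 0.02 after 3 days and 0.64 after 6 days, and that of all genes lay between 0.00 and 0.04 at these times. A member that passed the count filter only through the group in which it was high had to differ, so these shares describe the members and are no test of them. From 1 to 3 days 7 members rose and 1 fell (4.09% of all genes passed, 2.87% up and 1.22% down), a count of 5 with DESeq2, without ATRA 1 day replicate 2 or without ATRA 3 days replicate 1, and of 4 in the fit over all 17 libraries. From 3 to 6 days 15 rose and 7 fell (21.1% of all genes passed, 12.7% up and 8.41% down). With the adjusted p alone, without the fold threshold, 22 members passed at 1 day (26.4% of all genes), 32 at 3 days (45% of all genes), 41 at 6 days (75.1% of all genes), 27 from 1 to 3 days (34.5%) and 38 from 3 to 6 days (68.1%). All 3 sets of ATRA cultures were compared with the same DMSO cultures.

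The 6-day rises and falls were spread over the receptor families. At that time 18.8% of all genes rose and 12.3% fell, and no family was tested against these shares. Of the nicotinic members 6 rose and 1 fell among 14 tested, of the GABA-A members 4 rose and 5 fell among 13, and of the glycine members 3 rose among 4. Of the metabotropic glutamate receptors 2 fell and none rose among 5 tested, while 1 each of the AMPA, kainate and NMDA members rose. GABBR2 was the GABA-B member that rose.

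The bases just upstream of the start site are shown for members that rose and members that fell, since promoter sequence is where retinoic acid receptors and other factors could be looked for. The RefSeq promoter table (GRCh38.p14) matched 48 of the 68 members. The 6 shown are the 3 with the largest rise and the 3 with the largest fall at 6 days among 9 candidates. Each candidate's promoter had 1 entry, began at the start of the gene in the GENCODE v44 annotation and held no annotated exon. Members on the chromosome that carries CHRNA2 were not considered for this choice. CHRNA2 rose by more than GABRR2 at 6 days (2.80 against 2.21 on the log2 scale). Each is 250 bases, 5′ to 3′ on the strand of the gene and ending at the base before the start site, with capitals marking the matches to the motifs described after them. The regions are chr5:151924852-151925101, minus strand, for GLRA1, chr9:98708936-98709185, minus strand, for GABBR2, chr6:89315300-89315549, minus strand, for GABRR2, chr3:51706818-51707067, plus strand, for GRM2, chr15:26970931-26971180, plus strand, for GABRG3 and chrX:152637645-152637894, plus strand, for GABRQ.
GLRA1: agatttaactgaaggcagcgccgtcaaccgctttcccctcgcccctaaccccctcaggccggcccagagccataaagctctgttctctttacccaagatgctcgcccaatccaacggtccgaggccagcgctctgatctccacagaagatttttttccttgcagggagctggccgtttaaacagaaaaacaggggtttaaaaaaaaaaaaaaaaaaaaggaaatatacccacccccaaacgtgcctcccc
GABBR2: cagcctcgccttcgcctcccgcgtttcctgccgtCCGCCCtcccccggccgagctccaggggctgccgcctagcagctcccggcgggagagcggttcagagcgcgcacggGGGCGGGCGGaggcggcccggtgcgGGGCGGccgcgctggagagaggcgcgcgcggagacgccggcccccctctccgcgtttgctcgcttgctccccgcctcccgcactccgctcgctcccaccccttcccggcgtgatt
GABRR2: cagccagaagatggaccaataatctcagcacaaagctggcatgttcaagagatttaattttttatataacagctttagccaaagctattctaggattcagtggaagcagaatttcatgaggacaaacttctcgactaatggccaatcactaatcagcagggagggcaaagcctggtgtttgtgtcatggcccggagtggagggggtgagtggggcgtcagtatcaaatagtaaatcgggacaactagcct
GRM2: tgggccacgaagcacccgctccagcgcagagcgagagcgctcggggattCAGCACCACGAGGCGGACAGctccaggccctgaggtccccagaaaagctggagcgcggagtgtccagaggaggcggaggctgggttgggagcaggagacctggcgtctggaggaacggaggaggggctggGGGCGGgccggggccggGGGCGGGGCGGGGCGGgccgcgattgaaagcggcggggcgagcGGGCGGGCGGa
GABRG3: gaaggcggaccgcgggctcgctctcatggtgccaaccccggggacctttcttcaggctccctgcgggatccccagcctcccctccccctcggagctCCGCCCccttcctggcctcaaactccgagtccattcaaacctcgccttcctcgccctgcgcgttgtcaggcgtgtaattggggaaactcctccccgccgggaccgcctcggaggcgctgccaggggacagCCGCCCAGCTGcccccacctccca
GABRQ: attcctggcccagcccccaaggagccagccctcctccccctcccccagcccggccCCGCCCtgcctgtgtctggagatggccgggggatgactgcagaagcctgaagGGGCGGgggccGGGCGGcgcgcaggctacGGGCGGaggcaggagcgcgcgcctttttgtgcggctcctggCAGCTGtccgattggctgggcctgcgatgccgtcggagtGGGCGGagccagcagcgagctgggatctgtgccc

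The motifs searched on both strands were AGGTCA and AGTTCA, hexamers of retinoic acid response elements, direct repeats of AGGTCA with 2 or 5 bases between the copies, the E-box CAGCTG, the GC box GGGCGG and the core of RE1, the element bound by the neuronal repressor REST, searched as CAGCACC followed after 2 bases by GGACAG. The capitals in GABBR2 and in all but 1 match of GRM2 are GC boxes, some of which overlap each other. In GABRG3 and GABRQ the capitals are GC boxes and 1 E-box each, and in GABRG3 the E-box overlaps a GC box. The longest run of capitals in GRM2 holds CAGCACC and GGACAG, or their complement, with 7 bases between them, a spacing that was added to the search after this sequence was seen. That spaced form was in 0.0142% of all 35116 promoters, and among members in GRM2 alone. None of the 6 sequences held AGGTCA or AGTTCA, which were in 12.1% and 8.8% of all promoters. Over the 68 promoters of the 48 matched members, AGGTCA was in 1 (CHRNB2) and AGTTCA in 5, those of CHRNA1, GABRA2, GABRR1, GLRA2 and GRM8. Neither direct repeat was found in a member. The RE1 core was in 0.0456% of all promoters and in 1 member promoter, that of GRIA2. The GC box was in 42.6% of all promoters and 48.5% of the member promoters. A match in this window is no evidence of binding, and the window says nothing about sites elsewhere.

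GABBR2, the subunit that couples the GABA-B receptor to its G protein, rose at each time. Its level was 13.0 and 12.5 CPM in DMSO, 38.4 and 40.1 after 1 day, 89.3 and 92.3 after 3 days and 133.8 and 128 after 6 days. No group overlapped another, and the log2 fold changes against DMSO were 1.64 ± 0.05, 2.86 ± 0.05 and 3.33 ± 0.05 (adjusted p = 3.56e-37 at 6 days). GABBR1, which binds the ligand in the same dimer, read 13.0 and 15.0 CPM in DMSO, 9.48 and 10.2 after 3 days and 18.1 and 17.7 after 6 days, a log2 difference of 0.32 ± 0.08 at 6 days (adjusted p = 0.000345), under 2-fold. Per length, the pair stood at 1.74 (GABBR2) and 1.66 (GABBR1) CPM per kilobase in DMSO and at 17.8 and 2.11 after 6 days. The GABBR2 gene is at chr9:98288109-98708935.

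Of the 4 glycine receptor members tested, 3 rose by 6 days with GLRA1 in front, and GLRA1 alone rose at 1 and 3 days. GLRA1, the adult alpha1 subunit of the spinal cord, was at 2.62 and 3.19 CPM in DMSO, 6.53 and 7.26 after 1 day, 27.8 and 26.4 after 3 days and 40.5 and 38.9 after 6 days. The steps from 1 to 3 days (1.99 ± 0.08 on the log2 scale) and from DMSO to 1 day (1.27 ± 0.11) both passed, and the change at 6 days was 3.75 ± 0.09 (adjusted p = 3.74e-30). GLRA3 rose from 0.191 and 0.187 to 0.992 and 0.801 CPM at 6 days (2.19 ± 0.45), and GLRA2, the fetal alpha2 subunit, from 0.164 and 0.125 to 0.496 and 0.449 CPM (1.64 ± 0.58, adjusted p = 0.0106). The GLRA2 call rests on few counts and was lost without DMSO replicate 2 (adjusted p = 0.0822) or ATRA 6 days replicate 1 (0.0752) and with DESeq2 (0.109). GLRB, the beta subunit that anchors the receptor at synapses, read 3.30 and 3.03 CPM in DMSO, 1.59 and 1.68 after 3 days and 4.07 and 3.94 after 6 days. Against DMSO it was lower by 0.81 ± 0.18 and 0.92 ± 0.18 on the log2 scale at 1 and 3 days, under 2-fold, and differed by 0.30 ± 0.16 at 6 days (adjusted p = 0.0928), while its step from 3 to 6 days passed (1.22 ± 0.18, adjusted p = 2.67e-07).

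**Figure D2:**
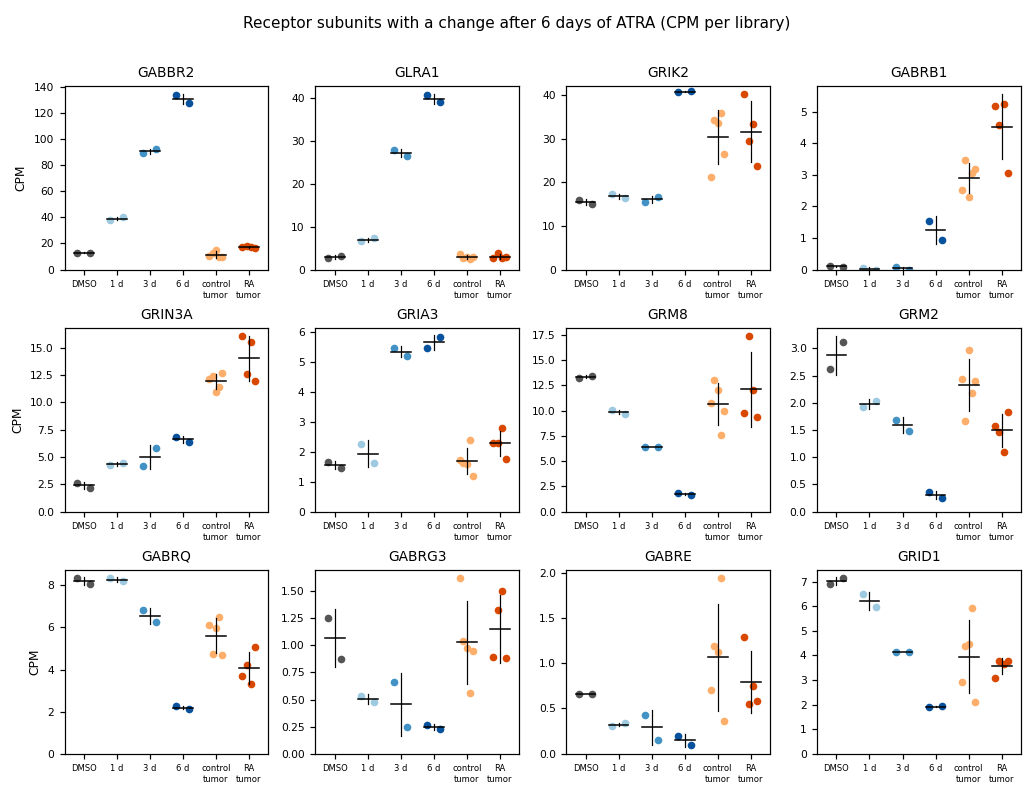
CPM per library (y axis, from 0) in each of the 6 groups (x axis) for 12 members that changed after 6 days of ATRA; points are libraries, horizontal lines group means and vertical lines ± SD (n = 2 per culture group, 5 control tumors, 4 RA tumors). GABBR2 and GLRA1 climbed at each time in culture, GRIK2 stood at 40.8 and 40.9 CPM after 6 days, and GRM8 and GRM2 declined, while the tumors of either kind stayed below the 6-day level of GABBR2 and GLRA1.

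Ganglionic nicotinic subunits were abundant in DMSO and higher at every ATRA time. CHRNA3 read 320 and 318 CPM in DMSO, 569 and 562 after 1 day, 611 and 621 after 3 days and 777 and 759 after 6 days. CHRNB4, the beta4 subunit, read 87.3 and 86.1 CPM, then 143 and 137, 149 and 148, and 215 and 217. No ATRA culture overlapped DMSO for either gene, and both passed the 2-fold threshold at 6 days (CHRNA3 1.24 ± 0.02, adjusted p = 2.31e-34; CHRNB4 1.28 ± 0.03, adjusted p = 3.48e-31) and not before. CHRNA5, an accessory subunit whose gene adjoins them, went from 58.9 and 57.3 CPM to 89.3 and 89.7 at 6 days, a log2 difference of 0.59 ± 0.04 (adjusted p = 3.55e-17) and under 2-fold. The 3 genes form a cluster from CHRNA5 at chr15:78565520-78595269 through CHRNA3 at chr15:78593052-78621295 to CHRNB4 at chr15:78624111-78727754. CHRNA3 and CHRNA5 share 198 exon bases on opposite strands, and since the strand setting of the counting is not given in the sources used here, reads from that stretch cannot be assigned to 1 of them.

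The brain-type nicotinic subunits went different ways. CHRNA4, the alpha4 subunit, read 1.15 and 1.41 CPM in DMSO, 1.29 and 1.28 after 1 day, 2.42 and 2.08 after 3 days and 30.6 and 32.6 after 6 days (4.60 ± 0.12, adjusted p = 5.53e-29). Nearly all of this rise fell between 3 and 6 days, where the log2 step was 3.75 ± 0.11. CHRNB2, its usual beta2 partner, stayed between 88.0 and 94.7 CPM in all 8 cultures (-0.01 ± 0.03 at 6 days, adjusted p = 0.721). CHRNA7, which forms homomeric alpha7 receptors, declined from 30.3 and 31 CPM to 20.3 and 17.2, 12.1 and 11.5, and 4.73 and 5.64, and its 3-day (-1.34 ± 0.08) and 6-day (-2.59 ± 0.09, adjusted p = 6.48e-24) changes passed. Its values are uncertain because CHRFAM7A, a partial duplicate of the gene, shares sequence with it, and CHRFAM7A was listed at 6.99 and 9.53 CPM in DMSO and 1.49 and 0.481 after 6 days. CHRNA2 was at 0.109 and 0.0937 CPM in DMSO and 0.826 and 0.673 after 6 days (2.80 ± 0.56, adjusted p = 2.83e-05). CHRNA9, an alpha subunit known from hair cells, was lower by 0.90 ± 0.07 at 6 days (adjusted p = 2.86e-13), under 2-fold, and CHRNA10 did not pass at any time.

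Of the 5 muscle-type nicotinic subunits, CHRNA1, CHRND and CHRNG fell after 1 day and rose between 3 and 6 days, while CHRNE and CHRNB1 did neither. CHRNA1, the alpha1 subunit, read 3.55 and 3.25 CPM in DMSO, 1.97 and 1.28 after 1 day, 1.62 and 2.48 after 3 days and 7.14 and 7.63 after 6 days. CHRND, the delta subunit, read 5.51 and 5.72, then 2.56 and 2.60, 3.88 and 4.38, and 10.4 and 12 CPM. CHRNG, the fetal gamma subunit, had 34 counts over the 2 DMSO libraries and 7 after 1 day. All 3 fell after 1 day, by 1.05 ± 0.19, 1.10 ± 0.14 and 2.27 ± 0.57 on the log2 scale, and all 3 rose from 3 to 6 days, by 1.77 ± 0.18, 1.37 ± 0.12 and 1.96 ± 0.48. Against DMSO at 6 days CHRNA1 rose (1.08 ± 0.16), CHRND was higher by 0.96 ± 0.11 (adjusted p = 1.82e-09, and 1.05, past 2-fold, without ATRA 6 days replicate 1) and CHRNG by 0.65 ± 0.40 (adjusted p = 0.139). The 1-day fall of CHRNA1 was -0.98 without DMSO replicate 1 and -0.78 without ATRA 1 day replicate 2, under 2-fold, that of CHRND was lost in the fit over all 17 libraries (adjusted p = 0.0612), that of CHRNG was -1.78 without ATRA 1 day replicate 1 (adjusted p = 0.0528) and -3.04 without replicate 2, and the 3 to 6 day rise of CHRNG was 2.57 without ATRA 3 days replicate 1. CHRNG also passed as lower at 3 days (-1.31 ± 0.51, adjusted p = 0.0355), a call lost without either DMSO library or ATRA 3 days replicate 2 (adjusted p = 0.0809 to 0.31) and with DESeq2 (0.196), and it was -1.93 without ATRA 3 days replicate 1. Exons of TIGD1 on the other strand cover 2918 of the 4362 exon bases of CHRNG. TIGD1 read 16.7 and 16.3 CPM in DMSO and 15.1 and 14.9 after 1 day. It read 17.7 and 16.8 CPM after 3 days, 21 and 23.3 after 6 days and 20.9 to 27.3 in the control tumors. How far reads of TIGD1 entered the counts of CHRNG was not tested. Of 12 skeletal muscle markers, MYH1, MYH2, MYH4, MYOD1, TNNI2 and TNNT3 were at 0 in all cultures, and the summed marker level was 36.9 to 37.4 CPM in DMSO, 35.9 to 38 after 1 day, 60.4 after 3 days and 10.7 to 10.8 after 6 days (CKM made up most of it in culture).

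CHRNE, the adult epsilon subunit of muscle, had under 1 CPM in every culture and passed as higher at 1 day (1.61 ± 0.52) and 6 days (1.69 ± 0.52). The 1-day call was lost without DMSO replicate 1 (adjusted p = 0.159), DMSO replicate 2 (0.0594) or ATRA 1 day replicate 1 (0.188) and in the fit over all 17 libraries (0.151). The 6-day call was lost without DMSO replicate 1 (adjusted p = 0.0532) or ATRA 6 days replicate 1 (0.0912) and with DESeq2 (0.0513). Exons of C17orf107 on the other strand cover 1712 of the 3521 exon bases of CHRNE. CHRNB1, the beta1 subunit, was higher by 0.63 ± 0.17 at 6 days (adjusted p = 0.00139), under 2-fold.

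**Figure D3:**
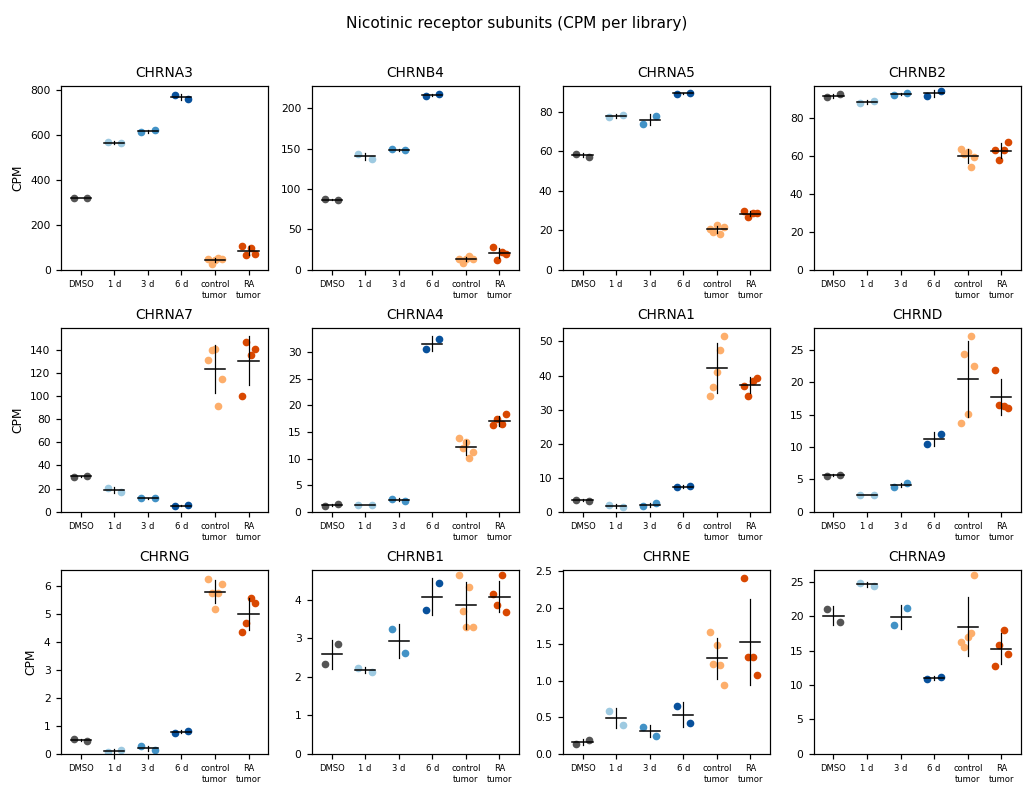
CPM per library (y axis, from 0) for 12 nicotinic subunit genes in the 6 groups (x axis); points are libraries, horizontal lines group means and vertical lines ± SD (n = 2 per culture group, 5 control tumors, 4 RA tumors). CHRNA3, CHRNB4 and CHRNA5 were higher in every ATRA culture than in DMSO and lower in all 9 tumors than in all 8 cultures, whereas CHRNA7, CHRNA1, CHRND and CHRNG were higher in all 9 tumors than in all 8 cultures.

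Among GABA-A subunits, which assemble as pentamers usually of alpha, beta and gamma or delta types, GABRA5, GABRB1, GABRA2 and GABRR2 rose at 6 days and GABRQ, GABRG3, GABRE, GABRD and GABRG1 fell. GABRA5, the alpha5 subunit of extrasynaptic receptors, rose at each time, from 4.69 and 5.28 CPM in DMSO to 12.1 and 12.8 after 1 day, 19.7 and 18.7 after 3 days and 18.5 and 19.5 after 6 days (1.90 ± 0.09, adjusted p = 7.26e-21). No ATRA culture overlapped DMSO, and the 3-day and 6-day cultures overlapped each other. GABRB1 had 7 counts in DMSO, 2 after 3 days and 76 after 6 days, which is 1.55 and 0.930 CPM at 6 days. Against DMSO its log2 fold change was 3.52 ± 0.55 (adjusted p = 4.97e-07), and against 3 days the ratio of the pooled levels was 38.6 (95% interval 10.3 to 324, counting error only). The fitted log2 step from 3 to 6 days moved from 5.05 to 8.33 without ATRA 3 days replicate 1 and to 4.07 without replicate 2. GABRR2, a rho subunit known from the retina, went from 0.3002 and 0.312 CPM to 1.39 and 1.54 (2.21 ± 0.36), and GABRA2 from 0.846 and 0.875 to 1.98 and 1.67 (1.05 ± 0.27), which was 0.91 without ATRA 6 days replicate 1 and then under 2-fold.

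GABRQ, the theta subunit, had the highest CPM in DMSO of the GABA-A members that fell. It read 8.35 and 8.06 CPM in DMSO, 6.83 and 6.27 after 3 days and 2.25 and 2.15 after 6 days (-1.93 ± 0.13, adjusted p = 7.04e-16). The other 4 had DMSO levels of 0.655 to 1.25 CPM. GABRG3 fell at 6 days by 2.15 ± 0.44, GABRE by 2.17 ± 0.54, GABRD, a subunit of extrasynaptic receptors, by 2.22 ± 0.47 and GABRG1 by 1.44 ± 0.38 on the log2 scale. Without ATRA 6 days replicate 1 the change of GABRE was -2.76. GABRG1, a gamma subunit, did not move evenly in time, and fell after 1 day (-1.11 ± 0.36), rose from 1 to 3 days (1.62 ± 0.34) and fell from 3 to 6 days (-1.95 ± 0.37). The 1-day call of GABRG1 was lost without DMSO replicate 2 (adjusted p = 0.272) or ATRA 1 day replicate 2 (0.148), and in the fit over all 17 libraries its calls at 1 day (0.539), from 1 to 3 days (0.153) and at 6 days (0.0763) were lost. GABRG3 also passed as lower at 1 and 3 days and GABRE at 3 days, and each of these calls was lost on leaving out 1 of at least 2 libraries: the GABRG3 1-day call without DMSO replicate 1 or either 1-day library (adjusted p = 0.0737 to 0.315), its 3-day call without DMSO replicate 1 or ATRA 3 days replicate 2 (0.165 and 0.253), and the GABRE call without either DMSO library or ATRA 3 days replicate 2 (0.139 to 0.471), while without ATRA 3 days replicate 1 these 3-day changes were -2.06 and -2.02. The 3-day calls of GABRG3 and GABRE were also lost with DESeq2 (adjusted p = 0.125 and 0.275) and in the fit over all 17 libraries (0.0865 and 0.273), the 1-day call of GABRG3 in that fit (0.326), and the GABRE call without the count filter (0.066) and with the replicate block (0.0501). From 3 to 6 days GABRD (-1.22 ± 0.54, adjusted p = 0.0447) was lost without ATRA 3 days replicate 2 or either 6-day library (adjusted p = 0.0628 to 0.248), with DESeq2 (0.172), in the fit over all 17 libraries (0.181), without the count filter (0.0577) and with the replicate block (0.0524), and GABRR2 was 0.99 without ATRA 3 days replicate 2, under 2-fold.

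Neighbours in the GABA-A clusters did not move together. On chromosome 15, GABRA5 and GABRG3 lie side by side between positions 26866911 and 27541984, and at 6 days their log2 fold changes were 1.90 and -2.15. On chromosome 4, GABRG1, GABRA2, GABRA4 and GABRB1 lie between 46035769 and 47426447, where GABRG1 fell, GABRA2 and GABRB1 rose and GABRA4 had no count in any culture. On chromosome X, GABRE and GABRQ fell and GABRA3, which lies between them, differed by -0.28 ± 0.06 (adjusted p = 0.000243), under 2-fold.

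GRID1, a delta receptor of the ionotropic glutamate family, fell from 6.90 and 7.15 CPM to 4.14 and 4.13 after 3 days and to 1.92 in both libraries after 6 days (-1.90 ± 0.14, adjusted p = 1.39e-14).

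The AMPA, kainate and NMDA receptor members were mostly higher at 6 days, with 1 of each passing the 2-fold threshold. GRIA3, an AMPA subunit, rose between 1 and 3 days, from 2.25 and 1.62 to 5.47 and 5.21 CPM, and held 5.49 and 5.83 CPM after 6 days (1.81 ± 0.17 against DMSO). GRIA4 and GRIA2, the AMPA subunit that keeps the channel closed to calcium, were higher at 6 days by 0.76 ± 0.03 and 0.64 ± 0.04, under 2-fold, and GRIA4 read 64.9 and 66.3 CPM in DMSO against 114 in both 6-day libraries. GRIA1 had no count in DMSO and 22 counts after 6 days, at least 8.19-fold higher over the group against the limit that a count of 0 allows (3 counts), and it was below the count filter. GRIK2, a kainate subunit, rose late, from 16.0 and 15.0 CPM in DMSO and 15.6 and 16.7 after 3 days to 40.8 and 40.9 after 6 days (1.36 ± 0.06, adjusted p = 2.32e-21). GRIK5 read 32.1 and 30.2 CPM in DMSO and 55.8 and 55.7 after 6 days (0.81 ± 0.05, under 2-fold). Its step from 3 to 6 days was 1.01 ± 0.05, and under 2-fold without ATRA 3 days replicate 2 (0.99) or the count filter (0.97). GRIK3 was lower by 0.60 ± 0.05 after 1 day (adjusted p = 6.82e-13) and by 0.24 ± 0.05 after 6 days, under 2-fold at both.

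GRIN1, the obligate NMDA subunit, read 105 and 107.4 CPM in DMSO and 103 and 106 after 6 days (-0.05 ± 0.03, adjusted p = 0.114). GRIN3A, an NMDA subunit that lowers calcium entry, rose from 2.65 and 2.19 to 6.84 and 6.41 CPM (1.41 ± 0.15). It also passed at 3 days (1.08 ± 0.16), and was 0.95 without DMSO replicate 2 and 0.83 without ATRA 3 days replicate 2, under 2-fold. GRIN2D was higher by 0.68 ± 0.05 at 6 days (adjusted p = 2.61e-14), under 2-fold, whereas GRIN2A had no count in any culture. The NMDA subunits with detectable counts in DMSO were thus GRIN1, GRIN2D, GRIN3A and GRIN2C, the last at 0.382 and 0.406 CPM.

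Of the 4 metabotropic glutamate receptors tested that couple to Gi proteins, GRM8 and GRM2 fell by 6 days, GRM4 was lower by just under 2-fold and GRM3 did not pass at that time. GRM8 read 13.2 and 13.5 CPM in DMSO, 10.02 and 9.72 after 1 day, 6.43 and 6.42 after 3 days and 1.82 and 1.67 after 6 days (-2.97 ± 0.12, adjusted p = 1.35e-22). GRM2 read 2.62 and 3.12 CPM, then 1.92 and 2.04, 1.69 and 1.49, and 0.363 and 0.257 (-3.23 ± 0.28, adjusted p = 6.36e-13). Neither gene had groups that overlapped between times. GRM4 was lower by 0.98 ± 0.11 at 6 days (adjusted p = 1.01e-08), and passed without the count filter (-1.03), without DMSO replicate 1 (-1.12) and without ATRA 6 days replicate 2 (-1.07). GRM3 passed as higher at 3 days (1.11 ± 0.46, adjusted p = 0.0481) on 0.564 and 0.745 CPM against 0.164 and 0.469, a call lost without DMSO replicate 1 (adjusted p = 0.497) or either 3-day library (0.0709 and 0.277), with DESeq2 (0.29), RLE scaling (0.0542) or the replicate block (0.0569), without the count filter (0.056) and in the fit over all 17 libraries (0.134), and its value was 2.01 without DMSO replicate 2. Its step from 1 to 3 days was lost without any 1 of the 4 libraries (adjusted p = 0.0502 to 0.215) and in the fit over all 17 (0.125). GRM5, which couples to Gq, rose from 3 to 6 days (1.56 ± 0.50), a call lost without ATRA 3 days replicate 2 (adjusted p = 0.0913) and with DESeq2 (0.0665), and GLRA2 passed from 1 to 3 days (2.00 ± 0.72) on 5 and 18 counts, a call lost without ATRA 1 day replicate 2 (adjusted p = 0.257) or ATRA 3 days replicate 1 (0.238) and in the fit over all 17 libraries (0.117), and at 3.22 without ATRA 1 day replicate 1. GRM5-AS1, whose exons overlap those of GRM5 on the other strand, had no count in the cultures.

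In the tumors, 51 members had enough counts for the test of RA against control and none rose or fell, where 0.284% of all 21098 genes passed, 0.246% up and 0.0379% down. edgeR's quasi-likelihood test gave an unadjusted p under 0.05 for 21 of the 51 (15.4% of all genes), of which 19 were higher in RA tumors, and DESeq2 called 1 member, GRIK4. With the adjusted p alone and no fold threshold, 6 members passed, all higher in the RA tumors (1.62% of all genes, 1.4% up). Among these were CHRNA5 (0.47 ± 0.08, adjusted p = 0.0126), CHRNA4 (0.50 ± 0.10, adjusted p = 0.0211), GABBR1 (0.42 ± 0.10, adjusted p = 0.0391), GRIA2 (0.44 ± 0.10, adjusted p = 0.0442) and GABBR2 (0.57 ± 0.14, adjusted p = 0.0471). Of the 51 log2 fold changes, 39 (76.5%) were positive, against 48.3% over all genes, and their median was 0.23 against -0.01. How long before collection the last dose was given is not known for these tumors.

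The RA tumors were all above the control tumors for 9 of the 51 members, against 3.88% of all genes, and all below for none. They included CHRNA3, CHRNA4, CHRNA5, GABBR1, GABBR2, GABRA3, GRIA4 and GRIN1. CHRNA3 read 46.5, 24.5, 42.6, 50.7 and 45.6 CPM in the control tumors and 104, 63.9, 96.9 and 70.9 in the RA tumors (0.99 ± 0.23, adjusted p = 0.083). CHRNA4 read 13.9, 12.04, 13.1, 10.2 and 11.3 against 16.3, 17.4, 16.5 and 18.3 CPM. GABBR2 read 10.4, 13.0, 15.3, 9.37 and 9.32 CPM in the control tumors and 17.2, 18.1, 17 and 16.3 in the RA tumors. CHRNB4, the partner of CHRNA3, overlapped between the groups, with 8.68 to 16.4 CPM in control and 12.3 to 28.3 CPM in RA tumors (0.65 ± 0.24, adjusted p = 0.225).

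GRIK3 and GRIK4, both kainate receptor subunits, had the largest log2 fold changes among the 51 and did not pass. GRIK3 read 9.23, 14.7, 11.6, 26.5 and 11.3 CPM in control tumors and 44.98, 25.4, 32.6 and 21.1 in RA tumors (1.07 ± 0.35, adjusted p = 0.204), and it passed without control tumor replicate 4 (1.40, adjusted p = 0.0407). GRIK4 read 1.57, 3.08, 1.74, 1.88 and 1.62 CPM against 5.43, 4.67, 3.49 and 2.48 (1.00 ± 0.26, adjusted p = 0.0674), and it passed without control tumor replicate 2 (1.23, adjusted p = 0.0219) or RA tumor replicate 4 (1.19, adjusted p = 0.0139), without the count filter (0.00326) and in a fit over all 17 libraries (0.0153). The fit over all 17 libraries shares its estimate of spread with the cultures, whose replicates varied less. Over all genes it made 157 calls for RA against control tumors, where the tumor fit made 60. Without control tumor 1, the tumor with the high muscle markers, no member passed in the tumor fit either. The mitochondrial share of counts was 3.42 to 5.74% in control and 3.1 to 5.07% in RA tumors.

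**Figure D4:**
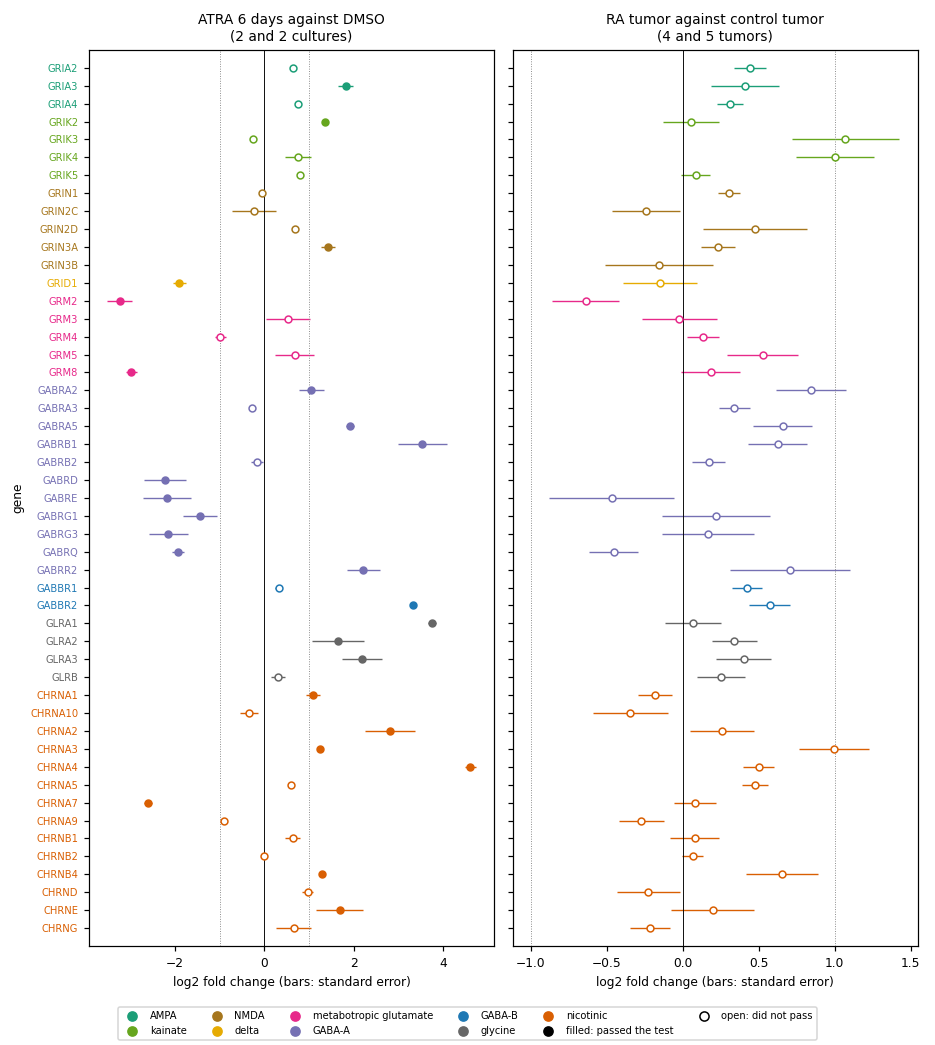
log2 fold change with SE (x axis, bars) of members tested after 6 days of ATRA against DMSO (left, n = 2 and 2) and in RA against control tumors (right, n = 4 and 5), by receptor family (color); filled points passed the test, open ones did not, dotted lines mark 2-fold and the x axes differ. On the left 26 of the 48 points are filled, from CHRNA4 at 4.60 to GRM2 at -3.23, and on the right none, with 36 of the 48 points shown above 0.

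The effect of RA in the tumors was set against the 6-day ATRA effect by an interaction term over all 17 libraries. It passed for 24 of 56 members, where 20.9% of all genes passed, with 15 below 0 (13.1% of all genes) and 9 above 0 (7.78%). With the adjusted p alone it passed for 31 (40.5% of all genes). The fit over all 17 libraries gave each gene 1 spread for cultures and tumors alike. The common spread between replicates (biological coefficient of variation) was 2.65% in the culture fit, 13.9% in the tumor fit and 11% in this one. The SE and adjusted p of the term may thus overstate the spread of the cultures and understate that of the tumors. Agent, dose, duration, host, luciferase label and kit differ between the 2 effects and cannot be told apart. Time since the last dose, not given for these tumors, cannot be set apart from them either. CHRNA4 (4.60 in culture and 0.50 in tumors, difference -4.13 ± 0.19), GLRA1 (3.75 and 0.07, difference -3.70 ± 0.22) and GABBR2 (3.33 and 0.57, difference -2.78 ± 0.19) had large differences in the negative direction. GRM8 (-2.97 and 0.18, difference 3.12 ± 0.33), CHRNA7 (-2.59 and 0.08, difference 2.64 ± 0.26) and GRM2 (-3.23 and -0.64, difference 2.56 ± 0.39) had large differences in the positive direction. For CHRNA3 and CHRNA5 the term did not pass (-0.27 ± 0.33, adjusted p = 0.585, and -0.14 ± 0.11, adjusted p = 0.331). The calls for CHRNE and GABRR2 were lost with DESeq2 (adjusted p = 0.0748 and 0.0729) and without the count filter (0.0884 and 0.0895), and that for CHRNE with RLE scaling (0.0512). The call for CHRNE was also lost without either DMSO library, ATRA 6 days replicate 1, control tumor replicate 1 or 3 or RA tumor replicate 2, 3 or 4 (adjusted p = 0.06 to 0.226), that for GABRR2 without any DMSO or 6-day library, control tumor replicate 1 or 3 or RA tumor replicate 2 or 3 (0.0678 to 0.122), that for GABRD without any DMSO or 6-day library or RA tumor replicate 3 (0.0574 to 0.136), and that for GRM4 without DMSO replicate 2 (0.96, under 2-fold).

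Control tumors differed from DMSO cultures in 30 of 56 members, 24 higher and 6 lower, where 42.9% of all 25787 genes passed, 31.5% up and 11.4% down. With the adjusted p alone 40 passed (71.7% of all genes). This comparison too came from the fit over all 17 libraries, whose shared spread lay between those of the culture and tumor fits. The members' median log2 difference was 0.66 and that of all genes 0.25. The 6 lower ones held the ganglionic nicotinic cluster. CHRNA3, at 24.5 to 50.7 CPM in the 5 control tumors against 318 and 320 in DMSO, was lower by 2.93 ± 0.22 on the log2 scale, CHRNB4 by 2.75 ± 0.23 and CHRNA5 by 1.51 ± 0.07. GRIK3 (-1.72 ± 0.33), GRIN2D (-1.47 ± 0.32) and CHRNA10 (-1.15 ± 0.21) were also lower.

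Other nicotinic subunits were higher in the control tumors. CHRNA7 read 132, 140, 141, 91.6 and 115 CPM (2.02 ± 0.18), with CHRFAM7A at 30.8 to 54 CPM. CHRNA1 read 33.9, 36.7, 41.0, 47.5 and 51.5 CPM (3.63 ± 0.19), CHRND 13.8 to 27.2 CPM (1.88 ± 0.24) and CHRNG 5.18 to 6.26 CPM (3.54 ± 0.24). Control tumor 1, the library with the highest skeletal muscle marker sum, had the lowest CHRNA1 (33.9 CPM) and CHRND (13.8 CPM) and the highest CHRNG (6.26 CPM), CHRNE (1.67 CPM) and CHRNB1 (4.64 CPM) of the 5 control tumors. CHRNA2 was higher by 6.37 ± 0.44, CHRNA4 by 3.25 ± 0.15 and CHRNE by 2.99 ± 0.44.

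Some inhibitory receptor genes were also higher in control tumors than in DMSO. They were 2 of 4 glycine members, 6 of 15 GABA-A members and neither GABA-B member, where 31.5% of all genes were higher. Of the glycine members, GLRA2 read 12.4, 13.7, 12.8, 8.30 and 10.8 CPM against 0.164 and 0.125 (6.27 ± 0.34), and GLRA3 2.46 to 3.89 CPM (3.96 ± 0.32), whereas GLRA1 did not differ detectably (0.00 ± 0.17, adjusted p = 0.985). Per length, GLRA1 stood at 16.2 and GLRA2 at 0.124 CPM per kilobase after 6 days in culture, and at 1.18 and 3.04 in the control tumors. Of the GABA-A members 6 of 15 tested were higher, among them GABRB1 (4.78 ± 0.46), GABRA2 (3.38 ± 0.33), GABRA5 (2.30 ± 0.25), GABRB2 (1.80 ± 0.14) and GABRG1 (1.75 ± 0.45). Among those lower by under 2-fold were GABRA3 (-0.78 ± 0.10) and GABRQ (-0.55 ± 0.15). GABBR2 differed by -0.15 ± 0.13 (adjusted p = 0.32).

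Among glutamate receptors, GRM5 (2.57 ± 0.37), GRIN3A (2.30 ± 0.16), GRIN2C (2.29 ± 0.34), GRM3 (1.80 ± 0.38), GRIK4 (1.497 ± 0.34) and GRM4 (1.46 ± 0.14) were higher in the control tumors. GRIN3B and GRIK1 had no count in DMSO and 48 and 40 counts over the control tumors, at least 11.2-fold and 9.36-fold higher. GRM3 was 2.72 without DMSO replicate 2. GRIN1 (-0.02 ± 0.07, adjusted p = 0.812), GRIA4 (-0.13 ± 0.09, adjusted p = 0.197) and GRIK5 (-0.06 ± 0.09, adjusted p = 0.544) did not differ detectably.

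Partner proteins of these receptors were counted from a list of 42 auxiliary subunits, chaperones and clustering proteins, of which 34 were tested in culture. At 6 days 4 rose and 9 fell, where 18.8% of all genes rose and 12.3% fell, and their median log2 fold change was 0.13 against 0.04 over all genes. CBLN4, a cerebellin, fell at each time, from 5.81 and 5.09 CPM in DMSO to 1.83 and 1.54, 0.398 and 0.559, and 0 and 0.0962 CPM, and the pooled level in DMSO was 112 times that after 6 days (95% interval 38.1 to 546, counting error only). KCTD8, an auxiliary subunit of GABA-B receptors, fell from 9.20 and 9.87 to 1.06 and 0.866 CPM at 6 days (-3.34 ± 0.16). LYPD1, a modulator of nicotinic receptors, had 33 counts in DMSO and none at 6 days, at least 9.84-fold lower, and SHISA8 had 21 and 2 counts (9.4 times, 95% interval 2.3 to 82.7), a call lost without ATRA 6 days replicate 1 (adjusted p = 0.0562). CACNG7, an auxiliary subunit of AMPA receptors, rose (3.03 ± 0.34). SYNDIG1 fell after 1 day (-1.62 ± 0.33) and 3 days (-1.10 ± 0.31), the latter lost without DMSO replicate 1 (adjusted p = 0.119) or ATRA 3 days replicate 1 (0.0661) and with DESeq2 (0.0815). LYPD1 also passed as lower at 3 days (-2.26 ± 0.66), a call lost without DMSO replicate 2 (adjusted p = 0.13) or ATRA 3 days replicate 1 (0.11), with DESeq2 (0.0776) and in the fit over all 17 libraries (0.0855), and at -3.70 without ATRA 3 days replicate 2. In the control tumors 9 were higher and 5 lower than in DMSO among 39 tested, where 31.5% of all genes were higher and 11.4% lower, with RAPSN, which clusters muscle nicotinic receptors, at 366 counts over 5 tumors against 2 over both DMSO libraries (ratio 128, 95% interval 35.3 to 1060, counting error only) and CBLN2 higher by 5.32 ± 0.69. In RA against control tumors none of 37 passed.

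Of 30 genes for synthesis, breakdown and transport of the transmitters, 20 were tested in culture, and at 6 days 5 rose and 3 fell (median -0.15), where 18.8% of all genes rose and 12.3% fell. ACHE, acetylcholinesterase, rose from 3 to 6 days, from 0.729 and 0.373 to 3.67 and 4.04 CPM (2.74 ± 0.27). SLC6A13, a GABA transporter, rose from 3 to 62 counts at 6 days (ratio 23.1, 95% interval 7.54 to 115, counting error only), and its 3-day rise (2.48 ± 0.86) was lost without either DMSO library or ATRA 3 days replicate 2 (adjusted p = 0.0576 to 0.509), with DESeq2 (0.0822) and in the fit over all 17 libraries (0.0533). GLDC, of the glycine cleavage system, fell after 1 day (-1.17 ± 0.07) and 3 days (-1.83 ± 0.08), and SLC6A11 fell at 3 days (-1.41 ± 0.30). In the control tumors 9 of 24 were higher than in DMSO and 4 lower, where 31.5% of all genes were higher and 11.4% lower. Among the higher ones were SLC17A6, a vesicular glutamate transporter, with 1 count in DMSO and 0.733 to 3.64 CPM in the control tumors, GLS2 (5.35 ± 0.50), GAD1, which makes GABA (4.47 ± 1.01, and 5.82 without DMSO replicate 1), and SLC1A7 (4.44 ± 0.59). The SLC17A6 call was lost without DMSO replicate 1 (adjusted p = 0.0583) or replicate 2 (0.065). In RA against control tumors none of 23 passed.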

How the data were processed

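RNA-seq of CHP-134 cultures and xenograft tumors had been processed by the authors into tables of expected counts per gene, which were deposited as 1 table for the cultures and 1 for the tumors. The submitters' processing notes name Trim Galore 0.4.4, STAR 2.7.10a, RSEM 1.3.3 and the build hg38. The annotation release, the strand setting and any removal of mouse reads are not given in the sources used here. The 60662 genes listed in both tables were used. Of the deposited expected counts, 7.56% in the culture table and 14.7% in the tumor table were not whole (tolerance 1e-06), and all were rounded to whole counts.

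Counts were tested with edgeR 4.0.16 (quasi-likelihood, TMM scaling, filterByExpr with a minimum count of 10) in R 4.3.3, in 1 fit for the cultures, 1 for the tumors and 1 over all 17 libraries for comparisons across them. A call required an adjusted p under 0.05 over all genes tested and more than 2-fold. Members named with values had a group mean of at least 1 CPM or passed a test. GRIA1, outside that rule, was added after its values were seen. Of the other gene lists, up to 6 called genes with the largest fold change per comparison are named. Members and gene lists were chosen with earlier results of these data known. The study calls the 2 replicates of the ATRA cultures independent, but no source used here says whether they were separate cultures, so p-values measure only the spread between these samples, which may be technical. Intervals and limits cover counting error only. Gene positions and exon lengths are from GENCODE v44 on GRCh38, and 23 of the 53 named members share at least 50 exon bases with another gene, whose reads the counting could have split between them. The alternatives were DESeq2 1.42.0, RLE scaling, no count filter, the adjusted p alone, a fit over all libraries, a replicate block and leaving out each library. The tests were tried on simulated data. Values of a few genes are not reported here, and counts over all members include them.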

Additional observations from a re-analysis of the deposited data

Results flagged for a closer look

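Among 106 pairs of a named member and a tumor group, 6 held 1 library far from the others, among them the 4 given here, where chance gives about 1 in 20. CHRNA9 was at 26 CPM in control tumor 5 against 15.6 to 17.6 in the other 4. CHRND was at 21.9 CPM in RA tumor 1 against 16.0 to 16.6. GRIK4 was at 3.08 CPM in control tumor 2 against 1.57 to 1.88. GRID1 was at 3.08 CPM in RA tumor 1 against 3.67 to 3.75.

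The effect of RA in tumors differed from the 6-day ATRA effect in culture for 24 members by the interaction term of edgeR's quasi-likelihood test. Given as the tumor effect minus the culture effect on the log2 scale, the nicotinic members included CHRNA1 at -1.30, CHRNA2 at -2.56, CHRNA4 at -4.13, CHRND at -1.22, CHRNE at -1.52 and CHRNA7 at 2.64. The inhibitory members below 0 included GABBR2 at -2.78, GABRA5 at -1.28, GABRB1 at -2.92, GABRR2 at -1.53, GLRA1 at -3.70 and GLRA3 at -1.81, and those above 0 included GABRD at 2.08, GABRG3 at 2.28 and GABRQ at 1.45. The glutamate receptor members below 0 included GRIA3 at -1.44, GRIK2 at -1.35 and GRIN3A at -1.22, and those above 0 included GRID1 at 1.72, GRM2 at 2.56, GRM4 at 1.09 and GRM8 at 3.12. Their adjusted p ran from 3.87e-12 to 0.043. Agent, dose, duration, time since the last dose, host, luciferase label and kit cannot be told apart in this difference.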

How the results depend on the processing

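Of 1808 fold changes recomputed for named genes, 1679 kept their direction and side of the threshold, 129 lost a call (85 of them on leaving out 1 library, 18 in the fit over all libraries, 15 with DESeq2, 6 without the count filter, 3 with the replicate block and 2 with RLE scaling) and 0 reversed. Fold changes left without an adjusted p, as for some calls with DESeq2 at 1 day and from 1 to 3 days, are not among the 1808. With the adjusted p alone the members called were 22 at 1 day, 32 at 3 days, 41 at 6 days, 27 from 1 to 3 days, 38 from 3 to 6 days and 6 in RA tumors, since no fold was required. DESeq2 called 5 at 1 day, 8 at 3 days, 5 from 1 to 3 days and 1 in RA tumors, the fit over all 17 libraries 5 at 1 day, 4 from 1 to 3 days and 1 in RA tumors, and the test without the count filter 1 in RA tumors. At 1 day and from 1 to 3 days, every member call missing with DESeq2 was one left without an adjusted p (15 and 13 members had none). The cause of the other differences was not tested. Leaving out each library gave 6 to 7 members at 1 day, 8 to 12 at 3 days, 27 to 29 at 6 days, 5 to 7 from 1 to 3 days, 20 to 23 from 3 to 6 days, 0 to 1 in RA tumors, 30 to 32 for control tumors against DMSO and 20 to 28 for the difference of effects. Over all genes, RA tumors had 60 calls, 81 with DESeq2, 124 without the count filter, 157 in the fit over all libraries and 24 to 160 on leaving out 1 tumor.

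Replicate numbers did not pair the samples (deviations of same-numbered libraries correlated at -0.13 to 0 in cultures and -0.5 to 0.21 in tumors). With the replicate block the members called were 9, 11 and 27 at 1, 3 and 6 days, 8 from 1 to 3 days, 21 from 3 to 6 days, 0 in RA tumors, 32 for control tumors against DMSO and 24 for the difference of effects, and 3 of 133 calls were lost: GABRE and GRM3 at 3 days and GABRD from 3 to 6 days. With 1 count at 0.0273 to 0.0559 CPM, members under 1 CPM rest on few counts.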
